A study of Canis lupus familiaris with 6 samples.

Results

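The KLF genes encode Krüppel-like factors, transcription factors that bind GC-rich and CACCC elements through zinc fingers at the C-terminal end. The 10 genes described here, KLF2, KLF3, KLF4, KLF5, KLF6, KLF7, KLF9, KLF10, KLF11 and KLF13, were taken by symbol from the 41401 gene symbols of the deposited tables, and the symbols hold 18 KLF genes in all. Members of the family differ mainly in the region outside the fingers. KLF2, KLF4, KLF5, KLF6 and KLF7 carry activating regions, KLF3 recruits the corepressor CtBP, and KLF9, KLF10, KLF11 and KLF13 recruit the corepressor SIN3A. In epithelia KLF5 is known for proliferating cells and KLF4 for differentiated, non-dividing cells, and several members respond early to growth factors, TGF-β, shear stress or hormones.

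The cells were MDCK, a canine kidney epithelial line. Wild-type MDCK (WT) and 2 clones of genotype PRL2-/-; PRL1+/- (titled D7 and F22, called clone 1 and clone 2 as in the labels) were transfected with control siRNA or PRL1-siRNA. RNA was harvested 18 h after a second round of transfection. Each line gave 1 library per siRNA, 6 libraries in all, so the mutant genotype rests on 2 clones and wild type on 1 library per treatment. How the alleles were made is not stated in the labels, and neither is whether the libraries of a line were independent cultures, so the p-values reflect only the spread among these lines and samples.

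Levels are in FPKM, a fragment count normalised to transcript length and library total, so levels can be compared between genes. Between 22961 and 23964 symbols were above 0 in a library. The depth of the other 5 libraries, read from the lowest values, was 0.766 to 0.917 of that of the wild-type control library, and the absolute depth is unknown. The siRNA target PTP4A1, which encodes PRL1, was at 61.7 to 69.9 FPKM in the control libraries and at 33.1 to 37.8 FPKM in the knockdown libraries. By line, control and knockdown values were 63.5 and 33.1 for wild type, 61.7 and 37.8 for clone 1, and 69.9 and 37.8 for clone 2. The 11 kidney epithelial markers, among them CDH1, EPCAM and PAX8, were all above 1 FPKM in every library. After knockdown 4 of the 11 rose and 5 fell in limma over the 3 lines, where 17.6% of all genes tested rose and 21.7% fell. The rises included PAX8 (0.57 ± 0.05, log2 scale, adjusted p = 0.00166) and CDH16 (0.82 ± 0.10, adjusted p = 0.00316). The falls were OCLN (-0.24 ± 0.05, adjusted p = 0.0132), KRT18 (-0.22 ± 0.04, adjusted p = 0.0125), CDH1 (-0.16 ± 0.03, adjusted p = 0.0130), EPCAM (-0.14 ± 0.04, adjusted p = 0.0325) and TJP1 (-0.12 ± 0.03, adjusted p = 0.0430), of which all but OCLN were named after their values were seen. OCLN lost its call without either clone (adjusted p = 0.0664 and 0.0639). Whether KRT18, CDH1, EPCAM and TJP1 keep theirs without a line was not tested. Of the endothelial markers, which matter because KLF2 and KLF4 are best known from endothelium, 7 of 9 were under 1 FPKM in every library, the exceptions being FLT1 and KDR, and the summed list ran from 7.25 to 25.1 FPKM in control and from 7.06 to 24.6 FPKM in knockdown libraries. Of 8 leukocyte markers, 7 were under 1 FPKM throughout, with PTPRC and CD3E at 0, and the sum was 5.94 to 6.96 in control and 5.75 to 7.75 FPKM in knockdown libraries. Of 10 fibroblast and muscle markers, 9 were under 1 FPKM throughout, with LUM at 0. Their sum was 0.443 to 1.98 FPKM in control and 0.804 to 4.50 FPKM in knockdown libraries. The smooth muscle actin gene ACTA2 rose by 0.74 ± 0.19 (adjusted p = 0.0277). Its control and knockdown values were 0.201 and 0.363 FPKM for wild type, 0.275 and 1.76 for clone 1, and 1.60 and 3.93 for clone 2. The log2 difference was 0.18 in wild type against 1.11 and 0.92 in the clones. The 1 endothelial and 1 leukocyte gene that reached the test, FLT1 and CD14, did not pass for knockdown. FLT1 was higher in the clones, with control and knockdown values of 15.5 and 15.9 FPKM for clone 1 and 23.8 and 23.4 for clone 2. Wild type had 6.23 and 6.06 FPKM. ACTA2 lost its call without either clone (adjusted p = 0.112 and 0.122). The part of these markers in the KLF values was not tested.

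KLF5 was by far the most abundant member. Control and knockdown values were 191 and 221 FPKM for wild type, 204 and 198 for clone 1, and 177 and 204 for clone 2. It made up 64.4% to 70.7% of the summed FPKM of the 18 KLF genes, and ranked between 288 and 380 among all symbols of a library. KLF6 followed at a mean of 29.3 FPKM over the 6 libraries, then KLF10 at 21.4, KLF3 at 10.1, KLF13 at 8.43, KLF7 at 5.47 and KLF11 at 3.36. KLF4 (0.915), KLF9 (0.738) and KLF2 (0.547) were near or below 1 FPKM. The ranges of KLF6 and KLF10 overlapped, as did those of KLF3 and KLF13, KLF7 and KLF11, KLF4 and KLF9, and KLF9 and KLF2; within a library, however, KLF3 was above KLF13 and KLF7 above KLF11 in all 6. The plot of levels in each library shows these values.

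**Figure D1:**
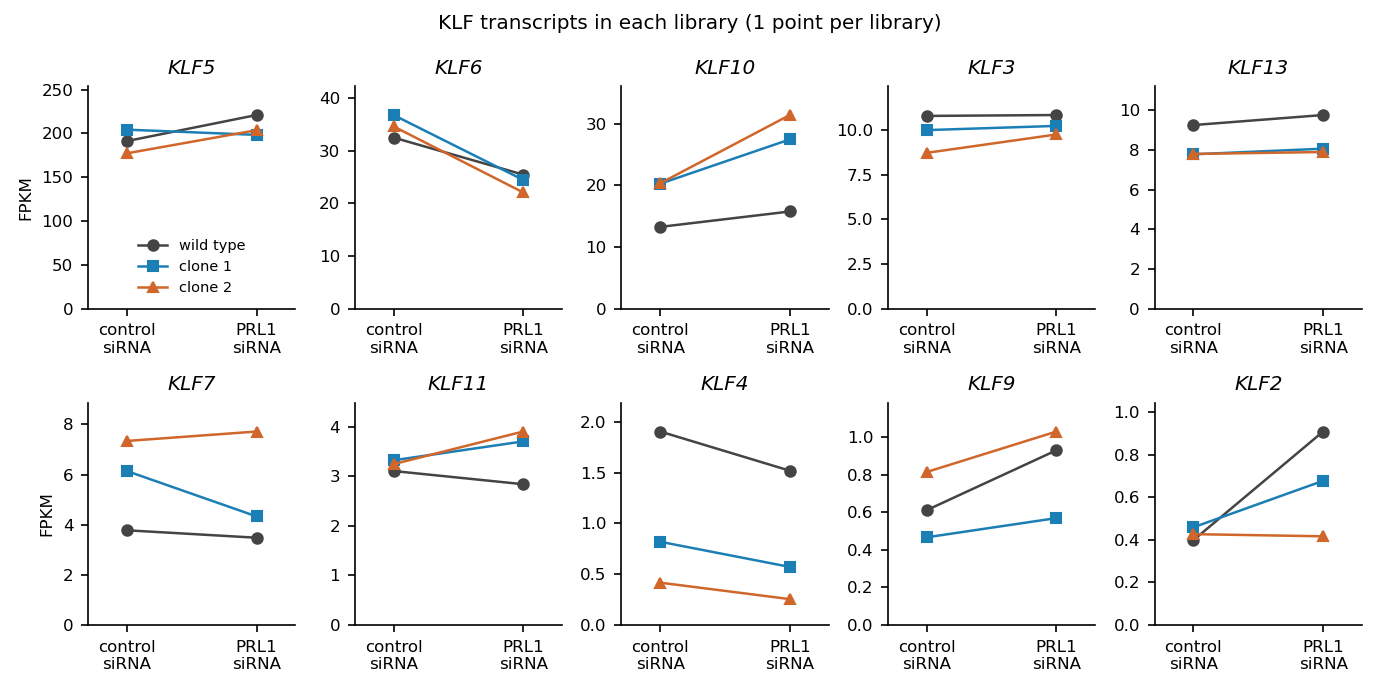
FPKM (linear axis from 0) of the 10 KLF genes, ordered by mean level, in each library; a line joins the control and PRL1 siRNA libraries of wild type, clone 1 or clone 2, with 1 point per library and no error bar. KLF6 and KLF4 slope down in all 3 lines, and KLF10, KLF9 and, slightly, KLF3 and KLF13 slope up. Of the 12125 genes whose mean reached 1 FPKM, 31.6% were higher in each line and 35.8% lower. KLF5 lies between 177 and 221 FPKM.

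PRL1 knockdown was compared with control siRNA within wild type, clone 1 and clone 2. KLF6 fell and KLF10 rose, and the other 5 tested members did not pass. The test was limma's moderated test on log2(FPKM + 1) with the line as a term, which assumes a single effect in the 3 lines. Adjusted p refers to Benjamini-Hochberg adjustment over the 12125 genes whose mean reached 1 FPKM, with a threshold of 0.05, and values after ± are standard errors of the log2 difference. KLF2, KLF4 and KLF9 were under that mean, so 7 of the 10 members were tested. Of these, 1 rose beside 17.6% of all genes tested, and 1 fell beside 21.7%, so the counts are near the background and only the single genes are described. The median log2 difference of the 7 was 0.06, against -0.01 over all genes tested, and their median absolute difference was 0.122 against 0.137.

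KLF6, a ubiquitous zinc finger activator induced in wounded and stressed tissue, measured 32.5 FPKM in the wild-type control library and 25.5 in the wild-type knockdown library. The same pair of values was 36.8 and 24.5 FPKM for clone 1 and 34.6 and 22.1 FPKM for clone 2. It was thus 21.7%, 33.5% and 36.3% lower in the 3 lines, and the 3 knockdown libraries lay below all 3 control libraries. The log2 difference was -0.51 ± 0.06 (95% interval -0.67 to -0.36, 3 of 3 lines, adjusted p = 0.00365). Of the 12125 genes, 4.96% had a larger absolute difference. In these bulk libraries, fewer cells with the transcript and less of it per cell cannot be told apart. Leaving out any line kept the call, with log2 differences from -0.60 to -0.45 and adjusted p of 0.00673 to 0.0388. It was not kept without the line term (adjusted p = 0.0564) or when all 27931 genes above 0 were tested (0.0717). Among the tested members KLF6 was the only one whose knockdown and control libraries did not overlap in the downward direction, where 16.2% of all genes did so, and none did so upward, against 12.6% of all genes.

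KLF10, also known as TIEG1 for its early induction by TGF-β, is a SIN3A-recruiting repressor. Control and knockdown libraries held 13.2 and 15.7 FPKM for wild type, 20.2 and 27.4 for clone 1, and 20.3 and 31.4 for clone 2. It was higher in each line, by 1.19-fold, 1.36-fold and 1.55-fold, while the knockdown library of wild type remained below both control libraries of the clones. The log2 difference was 0.42 ± 0.07 (95% interval 0.24 to 0.60, adjusted p = 0.00962), and 8.34% of the genes had a larger absolute difference. The call was lost without the libraries of clone 1 (0.42, adjusted p = 0.0669), without the line term (adjusted p = 0.0712) and when all genes above 0 were tested (adjusted p = 0.116).

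KLF6 and KLF10 therefore moved in opposite directions in every line, and in the clones, but not in wild type, their order changed. The ratio of KLF10 to KLF6 FPKM was 0.4075 under control siRNA and 0.618 after knockdown for wild type. The corresponding ratios were 0.550 and 1.12 for clone 1 and 0.587 and 1.42 for clone 2. KLF10 exceeded KLF6 only in the 2 knockdown libraries of the clones. The ratio of KLF5 to KLF6 was 5.12 to 5.89 in the control libraries and 8.11 to 9.23 in the knockdown libraries, without overlap. KLF5 itself did not pass and KLF6 alone was already without overlap, so this ratio is not a separate result.

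**Figure D2:**
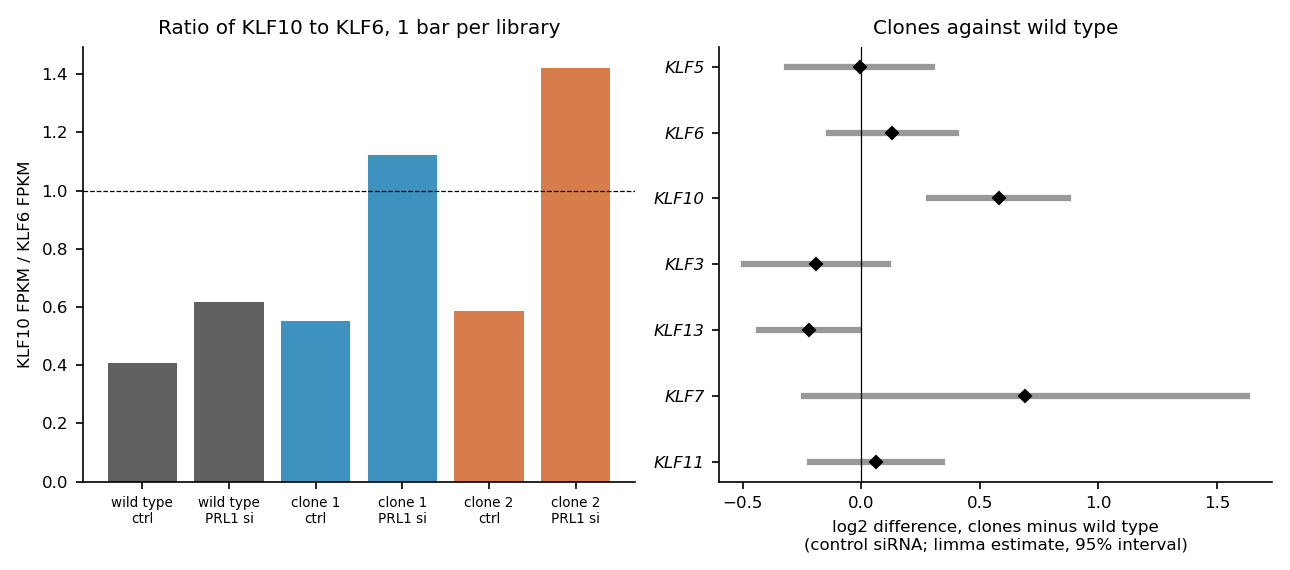
Left, ratio of KLF10 to KLF6 FPKM (bars from 0, 1 per library, dashed line at equal levels), which passes 1 in both clone knockdown libraries at 1.12 and 1.42. Right, log2 difference between clones (n = 2) and wild type (n = 1) under control siRNA on the log2(FPKM + 1) scale for the 7 tested members, as limma estimate (diamond) with 95% interval (bar); KLF10 (0.58) and KLF13 (-0.22) have intervals that do not reach 0, before adjustment over all genes.

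The remaining tested activators showed no shared change. KLF5, which drives proliferation genes in epithelial cells, had a log2 difference of 0.12 ± 0.06 (95% interval -0.02 to 0.27, adjusted p = 0.148), being higher after knockdown in wild type and clone 2 and slightly lower in clone 1. KLF7, a factor best known from neurons and adipocytes, was at 3.78 and 3.48 FPKM for wild type, 6.14 and 4.33 for clone 1, and 7.34 and 7.72 for clone 2. It was 29.4% lower after knockdown in clone 1, 7.85% lower in wild type and 1.05-fold the control value in clone 2, and the log2 difference over the lines was -0.15 ± 0.10 (95% interval -0.39 to 0.09, adjusted p = 0.264).

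KLF3, a CtBP-recruiting repressor, and the SIN3A-recruiting KLF11 and KLF13 did not pass. KLF3 had control and knockdown values of 10.8 and 10.8 FPKM (wild type), 10.0 and 10.2 (clone 1), and 8.73 and 9.76 (clone 2), a log2 difference that did not pass (0.06 ± 0.05, 95% interval -0.06 to 0.18, adjusted p = 0.346). KLF13, first known as an activator of a T-cell chemokine gene, stayed between 7.78 and 9.76 FPKM (0.04 ± 0.04, 95% interval -0.06 to 0.15, adjusted p = 0.442). KLF11, the closest relative of KLF10, was at 3.11 and 2.84 FPKM for wild type, 3.33 and 3.71 for clone 1, and 3.25 and 3.91 for clone 2 (0.08 ± 0.08, 95% interval -0.11 to 0.27, adjusted p = 0.449). It was lower after knockdown in wild type and higher in both clones. By sign alone, KLF3, KLF10 and KLF13 were higher in each of the 3 lines and KLF6 lower, 3 and 1 of 7, where 31.6% and 35.8% of all genes were.

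**Figure D3:**
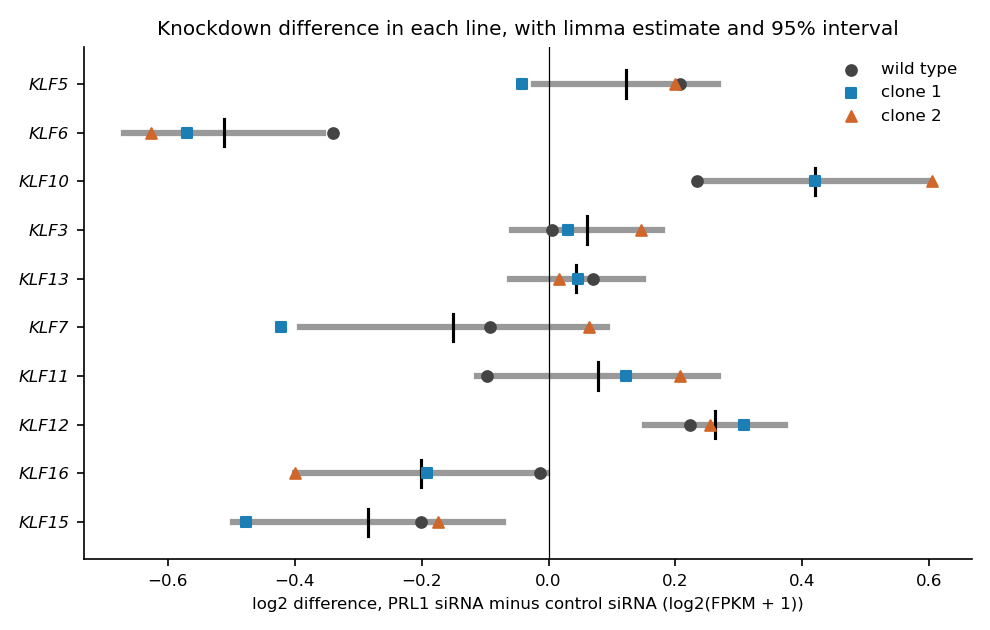
Difference between PRL1 siRNA and control siRNA on the log2(FPKM + 1) scale for the 7 tested members and for KLF12, KLF16 and KLF15; symbols are single lines (1 library pair each), the black tick is the limma estimate over the 3 lines and the grey bar its 95% interval. KLF6 (-0.51), KLF10 (0.42), KLF12 (0.26) and KLF15 (-0.28) have intervals away from 0 and an adjusted p under 0.05.

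The 3 members under a mean of 1 FPKM are given by their values, with the fit to all 27931 genes above 0. KLF4, a factor of epithelial differentiation and arrest, was at 1.91 and 1.52 FPKM for wild type, 0.820 and 0.572 for clone 1, and 0.417 and 0.255 for clone 2. It was 20.25%, 30.2% and 38.9% lower after knockdown, and in that fit the log2 difference was -0.20 ± 0.03 (unadjusted p = 0.0102, adjusted p = 0.0859). KLF9, which responds to glucocorticoid and thyroid hormone, was at 0.612 and 0.931 FPKM for wild type, 0.467 and 0.570 for clone 1, and 0.815 and 1.03 for clone 2. It was higher in each line, by 1.52-fold, 1.22-fold and 1.26-fold (0.17 ± 0.05, adjusted p = 0.166). KLF2, the shear-stress factor of endothelium, was at 0.398 and 0.908 FPKM for wild type, 0.459 and 0.677 for clone 1, and 0.426 and 0.416 for clone 2 (0.21 ± 0.11, adjusted p = 0.375). The 2.28-fold difference in wild type was thus absent in clone 2, where the ratio was 0.976. None of these 3 passed, and at these levels adding 1 FPKM before taking logs shrinks the difference.

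Within the clones alone, the fit with 4 groups and no pairing called 0 of 12125 genes (0%; smallest adjusted p = 0.106, 2575 genes at an unadjusted p under 0.05). With the clone as replicate block, KLF6 fell by 0.60 ± 0.04 (adjusted p = 0.00635; 0.106 unpaired) and KLF10 rose by 0.51 ± 0.06 (adjusted p = 0.0103; 0.121 unpaired), that is 1 of 7 members lower and 1 higher beside 19.2% and 14.5% of all genes. This paired fit leaves 1 residual degree of freedom. Whether the knockdown effect differed between clones and wild type was tested by the interaction, which called 0 genes (0%, with 136 at an unadjusted p under 0.05). For KLF6 the interaction was -0.26 ± 0.14 (95% interval -0.64 to 0.12), for KLF10 0.28 ± 0.15 (-0.13 to 0.69) and for KLF7 -0.09 ± 0.47 (-1.41 to 1.23), each with an adjusted p of 0.99995. The single-line differences of KLF6 and KLF10 were smallest in wild type, and the interaction intervals include 0. That fit has 1 wild-type pair and no line term, so the spread between the clones widens the intervals. A paired interaction was not tested, so whether the effects differ is not settled here.

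Clones and wild type were then compared under control siRNA. No member passed, and limma called 0 of all 12125 genes (0%; 1632 at an unadjusted p under 0.05). KLF10 was at 13.2 FPKM in wild type and 20.3 ± 0.05 in the clones (SD, n = 2), a log2 difference of 0.58 ± 0.10 (unadjusted p = 0.00541, adjusted p = 0.256). KLF7 was at 3.78 and 6.74 ± 0.85 FPKM (0.69 ± 0.33, adjusted p = 0.463), and KLF13 at 9.26 and 7.79 ± 0.01 FPKM (-0.22 ± 0.07, adjusted p = 0.355). KLF5 (-0.01 ± 0.11) and KLF6 (0.13 ± 0.10) had intervals of -0.31 to 0.30 and -0.14 to 0.40. KLF4 was lower in the clones, at 0.618 ± 0.28 FPKM against 1.91 (-0.86 ± 0.26 in the fit to all genes above 0, adjusted p = 0.392).

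Over both siRNAs, KLF7, KLF10 and KLF11 were higher in all 4 clone libraries than in both wild-type libraries, 3 of 7 beside 17.5% of all genes tested. KLF3 and KLF13 were lower in all 4, 2 of 7 beside 10.6%. The margin of KLF11 was small, with 3.11 FPKM in the wild-type control library and 3.25 in the control library of clone 2. Total FPKM also differed, at 437298 and 437333 in the wild-type libraries and 463211 to 474719 in the clone libraries. The part of this difference in the separations was not tested. Outside the tested genes, KLF4 ranged from 0.255 to 0.820 FPKM in the clones and from 1.52 to 1.91 in wild type, also without overlap. The shares given here cover tested genes only, so how common such a separation is at the level of KLF4 was not tested. The comparison between lines and the knockdown comparison share the control libraries. Genotype cannot be told apart from any other difference between the 2 clones and the wild-type line.

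The other KLF genes were read from a list of 8. KLF1, KLF8, KLF14, KLF17 and KLF18 were under 1 FPKM in every library, and 3 were tested, of which 1 rose and 1 fell beside 17.6% and 21.7% of all genes. KLF12, a CtBP-recruiting relative of KLF3, rose by 0.26 ± 0.04 (adjusted p = 0.00874). Its control and knockdown values were 10.2 and 12.1 FPKM for wild type, 7.69 and 9.76 for clone 1, and 4.44 and 5.50 for clone 2. KLF15, a factor of kidney and metabolic tissue, fell by 0.28 ± 0.09 (adjusted p = 0.0462), with values of 2.14 and 1.74, 3.74 and 2.41, and 1.57 and 1.27 FPKM in the same order. KLF16 did not pass (-0.20 ± 0.08, adjusted p = 0.0944). Of the related SP factors, which bind the same GC-rich elements, 5 of 9 were tested, 0 rose (17.6% of all genes) and 1 fell (21.7%): SP4 fell by 0.18 ± 0.05 (adjusted p = 0.0333). The calls of KLF15 and SP4 were lost without any 1 of the 3 lines, and that of KLF12 without clone 1 (adjusted p = 0.0821).

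Proteins that KLF factors recruit were tested as 14 cofactor genes, of which 1 rose and 5 fell (median -0.13), beside 17.6% and 21.7% of all genes tested. HDAC2, a histone deacetylase of the SIN3 complex, fell by 0.54 ± 0.03 (adjusted p = 0.00127) and WDR5, a subunit of histone methyltransferase complexes, by 0.23 ± 0.04 (adjusted p = 0.00733). The acetyltransferase gene CREBBP fell by 0.20 ± 0.05 (adjusted p = 0.0262). SIN3A, the partner of KLF9, KLF10, KLF11 and KLF13, was the member that rose (0.22 ± 0.05, adjusted p = 0.0220). Of these, HDAC2 kept its call without each line, and the others did not (adjusted p up to 0.143).

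Genes known to act upstream of KLF transcription moved as follows. In the ERK5 and MEF2 pathway, the route that induces KLF2 and KLF4 in endothelium, 3 of 6 tested genes rose and 0 fell (median 0.15), beside 17.6% and 21.7% of all genes. With so few genes the count says little about the pathway. Those that rose were the kinase genes MAP3K3 (0.34 ± 0.06, adjusted p = 0.00927) and MAP2K5 (0.17 ± 0.05, adjusted p = 0.0464), and the transcription factor gene MEF2A (0.27 ± 0.05, adjusted p = 0.0142). MAPK7, the ERK5 gene itself, did not pass (0.004 ± 0.05, adjusted p = 0.957). Neither did MAP3K2 (0.04 ± 0.04, adjusted p = 0.484) or MEF2D (0.12 ± 0.06, adjusted p = 0.125). Of 11 tested genes of TGF-β signalling, hormone receptors and FOXO factors, 6 rose and 2 fell (median 0.18), against 17.6% and 21.7% of all genes. The glucocorticoid receptor gene NR3C1 rose by 0.53 ± 0.11 (adjusted p = 0.0177) and the TGF-β receptor gene TGFBR1 by 0.44 ± 0.05 (adjusted p = 0.00357), whereas the ligand gene TGFB2 fell by 0.51 ± 0.05 (adjusted p = 0.00225) and the signal transducer gene SMAD3 by 0.35 ± 0.07 (adjusted p = 0.0128). TGFBR1 and TGFB2 kept their calls without each line. NR3C1 and SMAD3 lost theirs without clone 1 (adjusted p = 0.0749 and 0.0652), MAP3K3 and MEF2A without either clone, and MAP2K5 without any line.

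Of 8 genes of ubiquitin enzymes reported to act on KLF proteins, 1 rose and 2 fell (median 0.05), counts near the 17.6% and 21.7% of all genes. VHL, a substrate receptor of a cullin ligase, fell by 0.52 ± 0.05 (adjusted p = 0.00244) and kept its call without each line. SMURF2, a HECT ligase, fell by 0.23 ± 0.04 (adjusted p = 0.0120), and the F-box gene BTRC rose by 0.24 ± 0.05 (adjusted p = 0.0170); both lost the call without either clone. WWP1 and FBXW7, ligases of KLF5, did not pass (0.10 ± 0.04 and 0.04 ± 0.05, adjusted p = 0.112 and 0.519).

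Among genes reported as targets of KLF factors, 13 of 20 were tested, 5 rose and 5 fell (median 0.10), where 17.6% and 21.7% of all genes did. The lists overlap: TGFBR1 and TGFB1, which rose, are also on the list with TGF-β signalling. KRT19, which rose, and CDH1, which fell, are also kidney epithelial markers, so the counts of these lists are not separate. The rises included the cell cycle inhibitor gene CDKN1A (0.38 ± 0.09, adjusted p = 0.0213), the keratin gene KRT19 (0.36 ± 0.04, adjusted p = 0.00341) and the chemokine gene CCL5 (2.60 ± 0.65, adjusted p = 0.0267). CCL5 was at 0.0713 and 0.467 FPKM for wild type, 0.0445 and 11.1 for clone 1, and 0.643 and 22.1 for clone 2. Its log2 difference was 0.45 in wild type against 3.54 and 3.82 in the clones, so the single estimate describes none of the lines. The 5 falls, from largest to smallest, were ODC1 (-0.24 ± 0.05, adjusted p = 0.0152), CCND1, a G1 cyclin gene (-0.21 ± 0.05, adjusted p = 0.0185), CDH1 (-0.16 ± 0.03, adjusted p = 0.0130), BIRC5 (-0.16 ± 0.04, adjusted p = 0.0247) and LGALS3, the galectin-3 gene (-0.13 ± 0.03, adjusted p = 0.0341). All were named after their values were seen, and whether they keep the call without a line was not tested. KRT19 kept its call without each line. CCL5 lost it without either clone, and CDKN1A without wild type or clone 1 (adjusted p = 0.0881 and 0.111). The plot of list members shows that rises and falls were mixed in most lists.

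**Figure D4:**
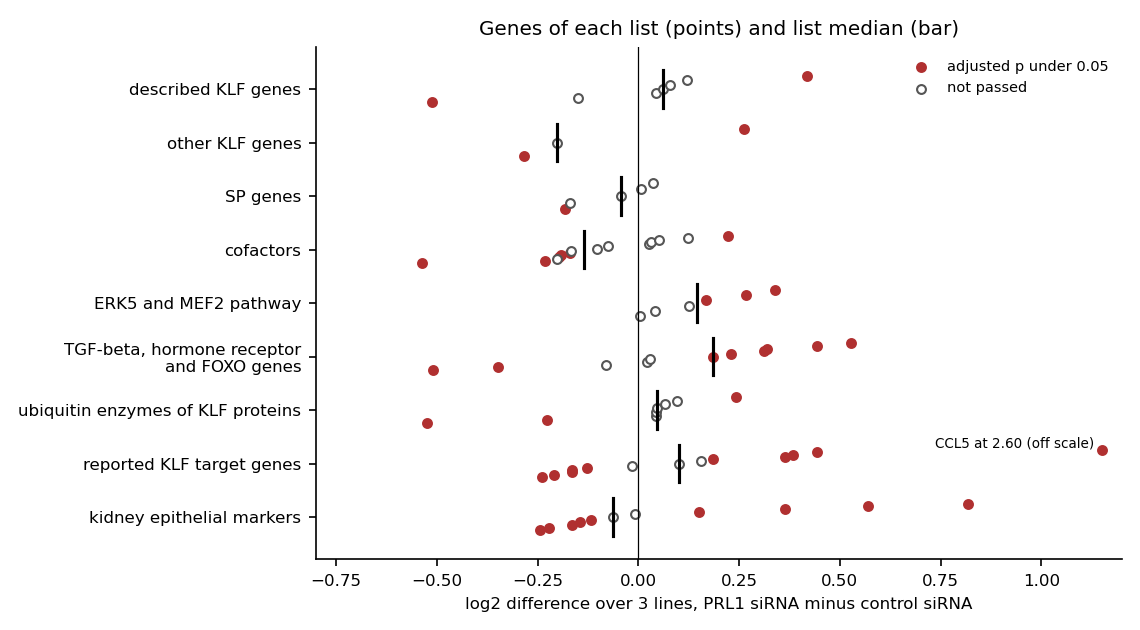
Log2 difference between PRL1 siRNA and control siRNA over the 3 lines, on the log2(FPKM + 1) scale, for tested genes of each list (points, filled where the adjusted p is under 0.05) with the median of the list (bar); CCL5, at 2.60, is drawn at the right edge. The described KLF genes have a median of 0.06 with KLF6 and KLF10 at the ends, and the cofactor list has a median of -0.13.

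Genes with the pattern most like a member were read from Pearson's r of log2(FPKM + 1) over the 6 libraries, among 8451 named genes whose mean reached 5 FPKM. For KLF6 these were ANKRD52 (r = 0.996), NFYC (0.994) and POLR2A (0.992), for KLF10 MOGS (0.992), RCN2 (0.9915) and PRKCA (0.9915), and for KLF7 FXYD5 (0.991), CCP110 (0.990) and STC1 (0.987). The 6 points share lines and treatments, and 554, 333 and 190 genes had r over 0.9 with KLF6, KLF10 and KLF7. PRKCA, a protein kinase C gene, was at 4.87 and 6.33 FPKM for wild type, 7.45 and 9.67 for clone 1, and 7.855 and 11.7 for clone 2. STC1, which encodes the hormone stanniocalcin-1, was at 282 and 254 FPKM for wild type, 418 and 282 for clone 1, and 565 and 598 for clone 2.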

How the data were processed

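Each of the 6 MDCK libraries has its own deposited table, in which the authors give an FPKM value for every gene symbol. Per the submitters' processing notes, HISAT2 2.1.0, Cufflinks 2.2.1 and Cuffdiff were used, and per the labels' protocols libraries came from a stranded mRNA kit. No build, annotation or strand setting is named in the sources used here. Coordinates and sequences are therefore not printed, and fragments of overlapping or antisense genes cannot be told apart. Relative depth was read from genes below 0.1 FPKM in 2 libraries, as the most frequent log2 ratio in bins of 0.01.

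Tests were run across all genes in limma 3.58.1 (R 4.3.3). Input was log2(FPKM + 1) of the 12125 genes whose mean reached 1 FPKM, variances were moderated with an intensity trend, and the Benjamini-Hochberg adjustment covered every gene tested. The knockdown fit has the line as a term (2 residual degrees of freedom). The other contrasts came from 4 groups without a line term, where the lone wild-type libraries are assumed to vary like the clones. An exact test over 3 pairs cannot go below p = 0.25. The 2 libraries of a clone are paired because they come from the same clone (r = 0.595 between their deviations from group means, across genes). Other settings were pseudocounts of 0.1 and 5, filters at 0 and 5 FPKM, quantile normalization, no trend, fits with and without the line, and leaving out lines or libraries. Named genes were all 10 members, up to 4 called genes per list by size of change, and the 3 genes most like each of the 3 tested members with the largest change. The reported target BMAL1 had no symbol match. Members and lists were chosen with earlier results of these data known.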

Additional observations from a re-analysis of the deposited data

Results flagged for a closer look

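KLF11 moved in opposite directions in the genotypes, lower after knockdown in wild type (3.11 to 2.84 FPKM) and higher in clone 1 (3.33 to 3.71) and clone 2 (3.25 to 3.91). The difference between the effects was 0.26 ± 0.14 on the log2 scale. The interaction in limma, fitted without a line term, did not pass (adjusted p = 0.99995, unadjusted p = 0.138). No group has the 4 samples needed to look for an outlying library.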

How the results depend on the processing

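Over the 3 lines 4762 genes were called (2130 higher, 2632 lower), 1179 when all genes above 0 were tested, and 0 with no replicate block (smallest adjusted p = 0.0516, 3407 genes at an unadjusted p under 0.05). Leaving out a line gave 1709 genes without clone 1, 2421 without clone 2 and 4037 without wild type. In the clones, the paired fit with the clone as replicate block called 4092 genes against 0 unpaired, and it changed the calls of KLF6 and KLF10 and of no other member. Clones against wild type gave 6 genes with a pseudocount of 5, 165 with all genes above 0 and 4 without an intensity trend, against 0, and the interaction gave 157 and 4 genes with these last 2 settings, against 0. No member was among these calls. Signs turned only for members that had not passed. With 1 clone library left out at a time, the unpaired difference in the clones ran from -0.000943 to 0.18 for KLF3, from -0.0234 to 0.18 for KLF5 and from -0.53 to 0.18 for KLF7. The interaction ran from -0.00708 to 0.17 for KLF3 and from -0.44 to 0.27 for KLF7, and clones against wild type from -0.11 to 0.0948 for KLF5. Of 518 single-gene values under alternatives, 424 kept direction and side of the threshold, 85 lost and 2 gained the call, and 7 turned sign. Results that had not passed are counted among the 424, and only a passed result can lose its call. The 85 losses are therefore not to be read as a share of 518. Without the line term, all 24 genes named from the other lists by size of change lost the call. When all genes above 0 were tested, 20 of them lost it. Of these 24 genes, 7 kept their call without each line. Called genes named outside that rule were not looked at in this way. FPKM hide the number of fragments, which limits KLF2, KLF4 and KLF9 most.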
